A study of Mus musculus with 27 samples.

Results

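The adult myosin heavy chain genes Myh4, Myh1, Myh2 and Myh7 were followed in the tibialis anterior muscle of mice before and after volumetric muscle loss (VML). They were taken by gene name as the 4 adult fibre-type isoforms, 4 of the 54532 genes in the expression table, and all 4 passed the filter on low values that left 14630 genes for testing. In the VML model, 40% of the muscle was cut away in 8-week-old male C57BL/6 mice, and the muscle was collected 3, 7, 14 or 21 days later for bulk sequencing of polyadenylated RNA. There were 5 uninjured samples, and the groups collected on days 3, 7, 14 and 21 held 5, 6, 6 and 5 samples, all from the same muscle, strain and sex, with no drug, transgene or gene deletion in any group. The sources differ on whether one or both legs were operated on, and they do not say whether a group's samples came from separate mice, so p-values measure the spread between these samples.

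Myosin heavy chain is the motor protein of the thick filament, and the isoform a fibre makes sets how fast it contracts. Myh4 encodes the type IIB chain of the fastest, glycolytic fibres, Myh1 the IIX chain, Myh2 the IIA chain of fast oxidative fibres, and Myh7 the slow type I chain, which the heart also makes. The mouse tibialis anterior is a fast muscle in which IIB and IIX fibres prevail, and regenerating fibres pass through the embryonic and neonatal chains Myh3 and Myh8 before adult isoforms appear.

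The fast genes lie in one cluster. In the table's coordinates, which are those of GRCm38, Myh2 (ENSMUSG00000033196) spans chr11:67171027-67197517, Myh1 (ENSMUSG00000056328) chr11:67200052-67224575 and Myh4 (ENSMUSG00000057003) chr11:67238029-67260446. All 3 are on the plus strand, within 89.4 kb from the start of Myh2 to the end of Myh4. Myh3 lies upstream of this block and Myh8 begins 16.7 kb downstream of Myh4. Myh7 (ENSMUSG00000053093) is alone among the adult isoforms, on the minus strand at chr14:54970684-54994626, 3.76 kb from its cardiac paralogue Myh6.

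The start regions of the fast genes carry a run of 20 bases that is the same in all 3, and it is shown because it is the longest sequence that their start windows have in common. It was found by comparing windows of 250 bases before to 50 bases after each RefSeq start (GRCm38.p6), and it occurred, on either strand, in 3 of the 32851 windows of the reference table, those of Myh1, Myh2 and Myh4. The stretches run from this run to the TATAAAA letters downstream of it, both in capitals, and lie at chr11:67237649-67237787 for Myh4, chr11:67199937-67200076 for Myh1 and chr11:67170897-67171043 for Myh2, all on the plus strand.
Myh4: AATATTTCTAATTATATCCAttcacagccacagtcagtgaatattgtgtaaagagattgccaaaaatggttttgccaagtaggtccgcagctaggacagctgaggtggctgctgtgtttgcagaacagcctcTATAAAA
Myh1: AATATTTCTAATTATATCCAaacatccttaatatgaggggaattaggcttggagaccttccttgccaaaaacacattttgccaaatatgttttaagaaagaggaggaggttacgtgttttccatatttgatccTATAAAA
Myh2: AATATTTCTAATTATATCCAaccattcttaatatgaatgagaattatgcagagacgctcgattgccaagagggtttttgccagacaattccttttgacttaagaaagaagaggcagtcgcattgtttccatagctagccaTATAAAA
The run and TATAAAA were 112 bases apart in Myh4, 113 in Myh1 and 120 in Myh2. Counted from the RefSeq start, TATAAAA began at -31 in Myh4, -32 in Myh1 and 11 in Myh2, so in Myh2 it lay past that start. TATAAAA, searched on both strands, was found in 5.48% of all windows. The letters CANNTG, the E-box read by myogenic factors such as MyoD, stood at 3 positions in the Myh4 window, at 2 in the Myh7 window and at none in those of Myh1 and Myh2, and 72.3% of all windows held them. The Myh7 window held neither the run nor TATAAAA, and its longest match with any fast gene was 9 bases.

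Values are FPKM as the authors deposited them, read counts divided by gene length and by a denominator set for each sample, so levels can be compared between genes per length. Depth recovered from the table was 14376395 to 24436763 reads per sample. The denominator recovered with it was not the total of reads. It was 0.747 to 0.819 times that total in the uninjured samples, 1.14 to 1.48 times on day 3, 0.810 to 1.44 on day 7, 0.810 to 1.33 on day 14 and 0.776 to 0.964 on day 21. How it was set is not given in the sources used here, and its part in the differences between groups was not tested, so values scaled to the total of reads, a choice made after seeing the data, are given as well. Fold changes come from limma, a linear model fitted to log2(FPKM + 1) of all 14630 genes in all 27 samples, and a gene was called where the Benjamini-Hochberg adjusted p was below 0.05. Of all genes, 43.2%, 29.4%, 20.3% and 3.43% were called against no injury on days 3, 7, 14 and 21. On day 3 there were 3417 genes higher and 2899 lower, 6868 and 322 after scaling to a common sum, and 2836 and 3628 after quantile normalization. The splits at days 7, 14 and 21 were 2189 to 2107, 1320 to 1649 and 255 to 247, and with a common sum 6304 to 209, 1678 to 107 and 42 to 7. Scaled to total reads, the genes higher and lower were 6534 and 618 on day 3, 5348 and 424 on day 7, 2275 and 288 on day 14 and 106 and 27 on day 21. With FPKM as deposited, the median log2 fold change of all genes was 0.01, 0.03, 0.02 and 0.01 on days 3, 7, 14 and 21. It was 0.51, 0.48, 0.29 and 0.12 with a common sum, and 0.40, 0.36, 0.25 and 0.12 with total reads. Differences of Myh4 and Myh1 from no injury are also given relative to that median where a scaling changed a call or a sign. Of the 27 samples, 9 lay nearer the centre of another group than their own. Among them were day 7 replicates 3 and 6, which touch several results and are given with and without.

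Without injury the isoforms were far apart. Myh4 stood at 5195 ± 838 FPKM (SD, n = 5), the 17th highest mean of all genes, Myh1 at 1461 ± 472, Myh2 at 194 ± 130 and Myh7 at 0.187 ± 0.148. Myh4 supplied 75.6% ± 9.22 of the summed FPKM of the 4 genes, Myh1 21.5% ± 7.51, Myh2 2.90% ± 2.11 and Myh7 0.00275% ± 0.00230. This order of levels held in 24 of the 27 samples. In the other 3 (day 3 replicates 2 and 4 and day 14 replicate 3) Myh1 was above Myh4, and Myh7 was the lowest of the 4 in all 27.

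**Figure D1:**
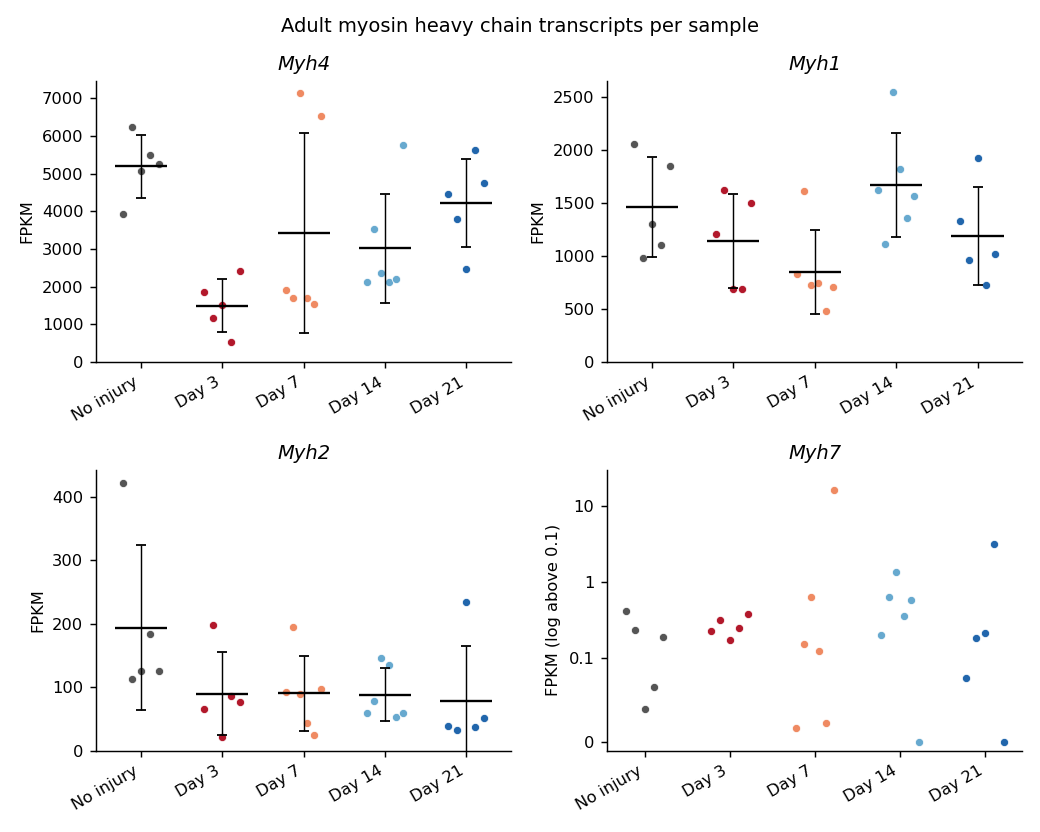
FPKM of the 4 genes in each sample (points) by group, with the group mean (line) and SD (bars) for Myh4, Myh1 and Myh2; the Myh7 axis is logarithmic above 0.1 and linear below, and carries no mean. The 5 day 3 points of Myh4, from 535 to 2416, all sit below the 5 uninjured points, from 3917 to 6229, while day 7 splits into 4 low and 2 high points.

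Myh4, the IIB chain and the most abundant of the 4, fell at day 3 and at no other day passed the test against no injury. The uninjured samples held 3917, 6229, 5075, 5492 and 5260.3 FPKM, and the day 3 samples 1861, 1166, 1507, 535 and 2416. Every day 3 sample was below every uninjured one, which was so for 16.5% of all genes tested. The mean fell 3.47-fold to 1497 ± 709 (n = 5), and the limma log2 fold change was -1.94 (SE 0.43, 95% interval -2.83 to -1.06, adjusted p = 7.98e-04). An exact two-sided permutation test of log2(FPKM + 1) gave p = 0.00794, the smallest that 5 against 5 samples allow. Of all genes tested, 19.8% were called lower at day 3. The direction held with a common sum per sample (log2 fold change -1.12, adjusted p = 0.00475, or -1.63 relative to the median of all genes) and with total reads (-1.28, limma adjusted p = 0.00262, or -1.68 relative to the median). As a share of each sample's reads, Myh4 went from 2.45% ± 0.480 to 1.08% ± 0.456. The exact permutation test, unadjusted, also gave p below 0.05 in other comparisons with no injury. These were Myh4 at day 14 (0.0238), Myh1 at day 7 (0.0390) and Myh2 at days 14 (0.0325) and 21 (0.0397).

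At day 7 the Myh4 values fell into separate ranges. Replicates 1, 2, 4 and 5 held 1907, 1685, 1709 and 1546 FPKM, below every uninjured sample, whereas replicates 3 and 6 held 7129.6 and 6543, the highest values of the whole series. The log2 fold change over all 6 was -0.92 (95% interval -1.77 to -0.07, limma adjusted p = 0.092). With replicates 3 and 6 left out it was -1.59 (limma adjusted p = 9.58e-04), in a fit that called 5908 genes against 4296 over all samples, and with only replicate 3 or only replicate 6 left out it was -1.20 (0.0204) or -1.18 (0.0266). These samples also held little Myh3, the embryonic chain (0.436 and 0.967 FPKM, against 20.1 to 49.7 in the other 4 and 0.228 to 0.669 without injury). Their summed FPKM of 8 macrophage markers was 168 and 61.9, against 314 to 2425 in the other 4 and 23.3 to 35.6 without injury. The part of these differences in the Myh4 values was not tested.

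At day 14 Myh4 ranged from 2126 to 5764 FPKM with a median of 2279 (n = 6), and 5 of 6 samples were below every uninjured one, with replicate 6 inside the uninjured range. The log2 fold change was -0.88 (95% interval -1.73 to -0.03) with a limma adjusted p of 0.132. The day 21 samples held 4449, 3802, 2467, 5628 and 4744 FPKM, and 2 of 5 lay below the uninjured range. Their log2 fold change was -0.34 (95% interval -1.23 to 0.55, limma adjusted p = 0.708).

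Between days, Myh4 rose from day 3 to day 21. Every day 21 sample was above every day 3 sample, which was so for 6.93% of all genes, and the log2 fold change was 1.61 (SE 0.43, 95% interval 0.72 to 2.50, limma adjusted p = 0.00796). Of all genes, 9.23% were called higher in this comparison. From day 3 to day 14 the value was 1.07 (limma adjusted p = 0.0722), or 1.28 (0.0338) without day 3 replicate 5, and from day 3 to day 7 it was 1.02 (0.218), in comparisons where 18.7% and 0.0478% of all genes were called. From day 7 to day 21 it was 0.59 (0.415), in a comparison where 2.25% of genes were called. Without day 7 replicates 3 and 6 it was 1.25 (limma adjusted p = 0.0154), in a fit that called 2970 of 14630 genes against 329 over all samples. Scaled to total reads, the rise of Myh4 from day 3 to day 21 was 1.14 (limma adjusted p = 0.0106), and that from day 3 to day 14 was 0.80 (0.0742). By mean the order was no injury, day 21, day 7, day 14 and day 3, and no neighbouring pair in this order passed the test. Of the 24 comparisons of a member between injured days, this rise of Myh4 was the 1 called.

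Myh1, the IIX chain, was not called at day 3. The uninjured samples held 2059, 979.6, 1306, 1107 and 1854 FPKM and the day 3 samples 1209, 1625, 686, 688 and 1506, with 3 of 5 inside the uninjured range. The log2 fold change was -0.39 (95% interval -1.06 to 0.28, limma adjusted p = 0.353), and its sign turned with a common sum per sample (0.44, or -0.07 relative to the median of all genes), with total reads (0.28, or -0.13 relative to the median) and with quantile normalization (0.34). Myh1 took 0.722% ± 0.220 of reads without injury and 0.875% ± 0.262 at day 3.

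At day 7 Myh1 was called lower. It ranged from 477 to 1616 FPKM with a median of 738 (n = 6), and 5 of 6 samples were below every uninjured one, the exception being replicate 2. The mean of 850.4 ± 393 was 1.72-fold below that without injury. The log2 fold change was -0.82 (SE 0.31, 95% interval -1.46 to -0.19) with a limma adjusted p of 0.0467, in a comparison where 14.4% of genes were called lower. This call was lost in 8 of the 11 fits that left out 1 of these samples, and with a common sum per sample the value was -0.10 (limma adjusted p = 0.807), or -0.57 relative to the median of all genes. With total reads it was -0.27 (limma adjusted p = 0.466), or -0.63 relative to that median.

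Myh1 had its highest mean at day 14, 1673 ± 492 FPKM (range 1115 to 2549.9, n = 6), where the log2 fold change against no injury was 0.21 (95% interval -0.43 to 0.84, limma adjusted p = 0.667). All but replicate 3 lay inside the uninjured range. From day 7 to day 14 the change was 1.03 (95% interval 0.42 to 1.64, unadjusted p = 0.00176, limma adjusted p = 0.148), with 3 of 6 day 14 samples above every day 7 sample, in a comparison where 0.335% of genes were called. Leaving out day 7 replicate 2 gave 1.24 with a limma adjusted p of 0.0487. At day 21 the samples held 1330.3, 959, 1923, 729 and 1017 FPKM, and the value was -0.31 (limma adjusted p = 0.630). No neighbouring pair in the order day 14, no injury, day 21, day 3 and day 7 passed the test.

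Myh2, the IIA chain, had lower means at every day than without injury, and none was called by limma. Uninjured replicate 1 held 421 FPKM and the other 4 held 112, 125, 183 and 126. The day 3 samples held 65.8, 198, 21.9, 86.8 and 76.0, and 4 of 5 were below the uninjured range. The log2 fold change was -1.22 (95% interval -2.37 to -0.07, limma adjusted p = 0.0816), and without day 3 replicate 2 it was -1.58 (0.0271).

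The day 7 samples of Myh2 ranged from 24.99 to 195 FPKM with a median of 91.0, and the day 14 samples from 53.2 to 146 with a median of 68.6. The log2 fold changes were -1.16 (95% interval -2.27 to -0.06, limma adjusted p = 0.101) and -1.05 (95% interval -2.15 to 0.06, limma adjusted p = 0.166). Without day 7 replicate 2 the day 7 value was -1.44 (limma adjusted p = 0.04705). In both groups most samples, 5 of 6 at day 7 and 4 of 6 at day 14, were below every uninjured sample.

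At day 21 Myh2 was lowest in 4 samples, with 39.4, 32.6, 37.2 and 51.1 FPKM, while replicate 3 held 234, inside the uninjured range. The log2 fold change over all 5 was -1.56 (SE 0.56, 95% interval -2.71 to -0.41, unadjusted p = 0.00995, limma adjusted p = 0.117), where 1.69% of genes were called lower. Without replicate 3 it was -2.07 (limma adjusted p = 0.0300). Day 21 replicate 3 also had the lowest Myh4 and the highest Myh1 of its group.

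**Figure D2:**
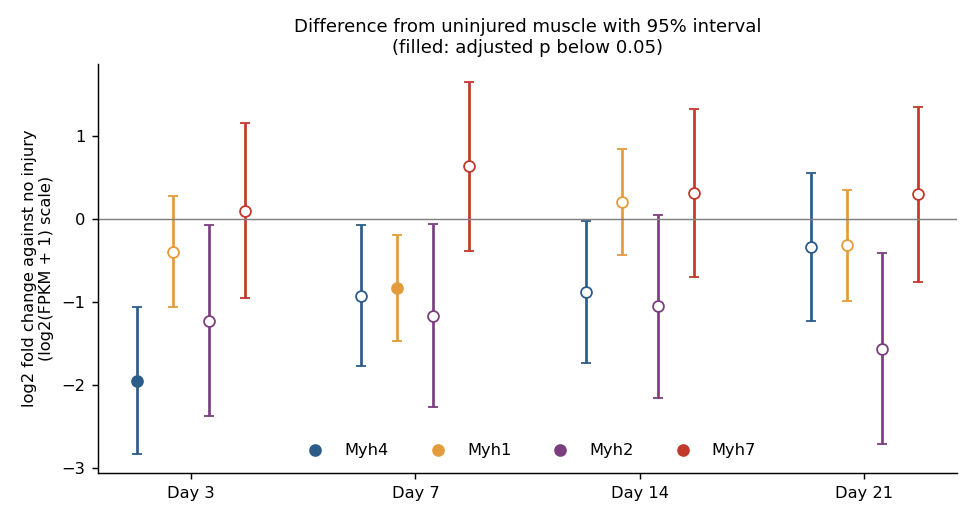
log2 fold change of each gene against no injury (vertical axis, on the log2(FPKM + 1) scale) at the 4 days, with the 95% interval of the limma fit; filled points have an adjusted p below 0.05. Filled points are Myh4 at day 3 (-1.94) and Myh1 at day 7 (-0.82), and the Myh2 points lie between -1.56 and -1.05.

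Myh7, the slow chain, was barely present. It was under 1 FPKM in 24 of the 27 samples. The uninjured samples held 47, 34, 4, 7 and 24 reads (0.0396 to 0.410 FPKM), and the day 3 samples 41, 45, 39, 49 and 70 reads (0.172 to 0.382 FPKM). The groups overlapped in FPKM. None of the 4 comparisons with no injury was called, with log2 fold changes of 0.10, 0.64, 0.31 and 0.30 at days 3, 7, 14 and 21 and limma adjusted p from 0.345 to 0.890. The pseudocount of 1 understates a change at levels below 1 FPKM.

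In 2 samples, day 14 replicate 6 and day 21 replicate 5, no Myh7 read was counted. A count of 0 allows up to 3 reads, which is 0.0295 and 0.0312 FPKM in these samples, counting error only. The highest values were in day 7 replicate 6, with 1747 reads (16.3 FPKM), and in day 21 replicate 4, with 409 reads (3.16 FPKM). Day 7 replicate 6 also held the most Myl2, the slow regulatory light chain, at 177 FPKM against 0.397 to 17.4 in the other day 7 samples. Day 21 replicate 4 held 23.6 against 0.973 to 1.73 in its group. Of the 4 cardiac markers, Myl7 had no read in any sample, and Nppa averaged 0 FPKM without injury and 0.0507 at day 3. The 2 that passed the filter on low values were called higher on days 3, 7 and 14. Summed over the list, the cardiac markers held 0.476 to 1.19 FPKM without injury and 9.74 to 31.1 at day 3. Without day 7 replicate 6 the day 7 log2 fold change of Myh7 was -0.01, and without day 21 replicate 4 the day 21 value was -0.08.

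The proportions of the isoforms were then compared, since a share of the summed FPKM of the 4 genes does not depend on the scaling between libraries. At day 3 the share of Myh4 was 59.3%, 39.0%, 68.0%, 40.8% and 60.4%, against 61.2%, 85.1%, 78.0%, 81.0% and 72.7% without injury. Of these 5 day 3 samples, 4 were below the uninjured range. The mean went from 75.6% to 53.5%, a difference of -22.1 percentage points (exact two-sided permutation p = 0.0159). The share of Myh1 went from 21.5% to 42.8%, up by 21.3 points, with 4 of 5 samples above the uninjured range (exact permutation p = 0.0159). Adjusted over the 16 tests of a share (4 genes at 4 days), both p were 0.0847. The shares are parts of one sum, of which Myh4 and Myh1 hold nearly all, so their changes at a day are not separate results. In FPKM, the Myh1 mean was 1143 at day 3 against 1461 without injury. The summed FPKM itself did not overlap, at 6398 to 7321 in the uninjured samples and 1310 to 3998 on day 3. Of single genes tested, 16.5% had every day 3 sample below every uninjured one. The FPKM denominators differ between these groups. In percent of each sample's reads, the 4 genes together held 2.96 to 3.64 without injury and 1.21 to 2.80 on day 3.

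**Figure D3:**
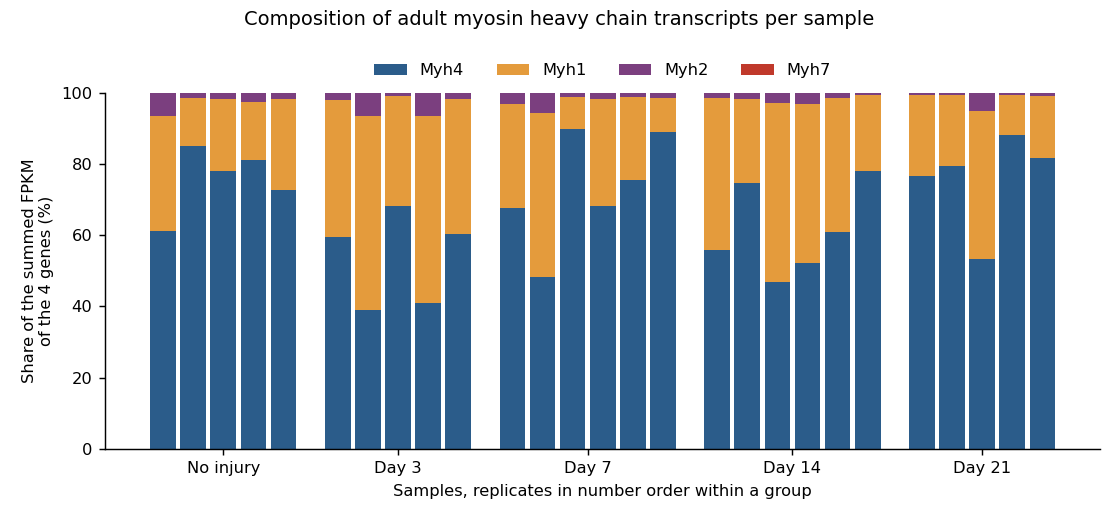
Share in percent of each gene in the summed FPKM of the 4 genes (stacked bars from 0 to 100%), 1 bar per sample; Myh7, at most 0.221%, is too thin to see. Myh4 averages 75.6% without injury, 53.5% at day 3 and 75.7% at day 21, and Myh1 fills most of the rest.

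By day 7 the mean shares were 73.0% ± 15.5 for Myh4 and 24.6% ± 14.0 for Myh1, close to the uninjured means but with a wide range, 48.2% to 89.7% for Myh4. At day 14 Myh4 made up 61.4% ± 12.5 (difference -14.2 points, exact permutation p = 0.0693, or 0.0381, 0.0476 and 0.0317 without uninjured replicate 1, day 14 replicate 2 or day 14 replicate 6) and Myh1 36.7% ± 11.8 (15.2 points, exact permutation p = 0.0433, adjusted 0.173). At day 21 the means were 75.7% ± 13.2 and 22.7% ± 11.4. Myh2 took 3.65% ± 2.75 at day 3 and 1.57% ± 1.95 at day 21, where its difference from no injury was -1.32 points (exact permutation p = 0.405). Without day 21 replicate 3 that difference was -2.19 points (exact permutation p = 0.0238). The share of Myh7 was 0.0109% ± 0.00478 at day 3, above every uninjured sample in 5 of 5 (exact permutation p = 0.00794, adjusted 0.0847), on 39 to 70 reads a sample. In FPKM the Myh7 values of these groups overlapped, and the sum they were divided by was lower at day 3. The other 10 tests of a share gave p from 0.0671 to 0.984.

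Each gene was also set against 8 genes that all muscle fibres use (Acta1, Ckm, Ttn, Neb, Des, Tcap, Actn2 and Ldb3), as the log2 ratio of its FPKM to their geometric mean. In bulk muscle, fewer cells of a type and less RNA per cell cannot be told apart. Of these 8 genes, 6, 3 and 1 were called lower on days 3, 7 and 14, but on day 3 this was 4 lower and 1 higher with total reads and 0 lower and 1 higher with a common sum. Over all genes tested, 19.8%, 14.4% and 11.3% were called lower on those days. Acta1, skeletal actin, had a log2 fold change of -0.77 at day 3, which turned to 0.05 with a common sum and 0.49 with quantile normalization, and Ckm, muscle creatine kinase, -1.43, whereas Des, desmin, stood at 0.25 and was not called.

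Against these genes Myh4 had a lower mean at day 3 than without injury and Myh1 a higher one, and neither passed the test after adjustment. The ratio of Myh4 went from 2.44 ± 0.36 to 1.42 ± 0.59, a difference of -1.02 on the log2 scale (exact permutation p = 0.0159), with 4 of 5 day 3 samples below the uninjured range. The ratio of Myh1 went from 0.56 ± 0.34 to 1.10 ± 0.26, a difference of 0.54 (exact permutation p = 0.0397), with 4 of 5 above it. At day 14 the difference was 0.58 for Myh1 (exact permutation p = 0.0368) and -0.51 for Myh4 (exact permutation p = 0.0671). With Ttn and Neb alone as the reference, Myh1 differed by 0.72 at day 3 (exact permutation p = 0.0556) and by 0.49 at day 14 (0.134). For Myh4 at day 14 the exact permutation p was 0.0333 without uninjured replicate 1 and 0.0317 without day 14 replicate 6. Adjusted over the 16 ratio tests, the smallest p was 0.0847.

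Myh2 had a ratio of -2.49 ± 0.72 without injury and -3.87 ± 1.06 at day 21, a difference of -1.38 (exact permutation p = 0.0556), and without day 21 replicate 3 it was -1.83 (exact permutation p = 0.00794). The ratio of Myh7 was higher by 1.86 at day 3 (exact permutation p = 0.00794) and by 2.37 at day 14 (exact permutation p = 0.0159, leaving out the sample with 0 reads), on at most 219 reads in any of these samples. The sample left out was the lowest of day 14, and the test of the Myh7 share, which keeps it, gave an exact permutation p of 0.0671 at that day. The remaining 9 ratio tests gave p from 0.108 to 0.690.

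**Figure D4:**
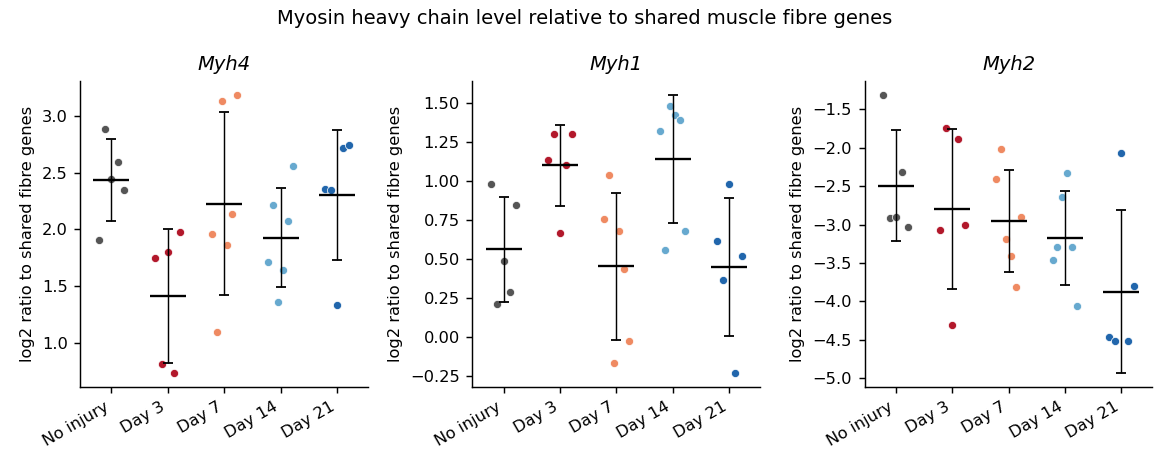
log2 ratio of Myh4, Myh1 and Myh2 to the geometric mean of 8 shared muscle fibre genes in each sample (points) by group, with mean (line) and SD (bars); the vertical axes differ. At day 3 the Myh4 mean is 1.42 against 2.44 without injury and the Myh1 mean 1.10 against 0.56, and at day 21 the low Myh2 mean of -3.87 has 1 high sample.

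The transcripts around the fast genes were examined next, because noncoding genes lie between and over them. The gene 2310065F04Rik, a long intergenic noncoding RNA on the minus strand between Myh3 and Myh2 (chr11:67112461-67120080), is 50.9 kb from Myh2. Its level was 53.5, 57.5, 52.0, 42.7 and 53.7 FPKM without injury and 17.1, 9.83, 6.80, 3.18 and 6.51 at day 3. Every day 3 sample was below every uninjured one, as in 16.5% of all genes tested. 2310065F04Rik fell at days 3, 7 and 14, with log2 fold changes of -2.61 (limma adjusted p = 2.58e-04), -2.11 (0.00290) and -1.80 (0.0119), and at day 21 the value was -0.92 (0.323). All 3 calls stood with a common sum, total reads and quantile normalization. Day 7 replicates 3 and 6, the high Myh4 samples, held 36.4 and 53.5 FPKM of it, against 3.87 to 7.45 in the other 4.

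Myhas, an antisense RNA (chr11:67211256-67237573), starts 455 bases upstream of Myh4 and runs into Myh1. It went from 33.3 ± 7.53 FPKM without injury to 12.1 ± 5.37 at day 3 (log2 fold change -1.45, limma adjusted p = 2.84e-04). These groups did not overlap, as in the 16.5% of all genes tested with every day 3 sample below every uninjured one. Myhas was also called lower at day 7 (-1.05, 0.00646), though not with total reads (-0.53, 0.0565) or a common sum (-0.37, 0.190). Its exons share 515 bases with Myh1 exons. The library did not keep strand, so reads from the shared bases cannot be told apart. At day 3 Myhas fell while Myh1 was not called.

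The antisense gene 9430073C21Rik overlaps the end of Myh2 by 237 exon bases (chr11:67195680-67199234). It went from 8.25 ± 3.25 to 2.09 ± 1.32 FPKM at day 3 (-1.63, limma adjusted p = 0.0139), a call lost with a common sum (-1.03) and with total reads (-1.14), and its values at the later days, -1.19, -1.25 and -1.28, were not called. The antisense genes over Myh7, named Mhrt, Gm31251 and Gm29015, had no read in any sample.

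**Figure D5:**
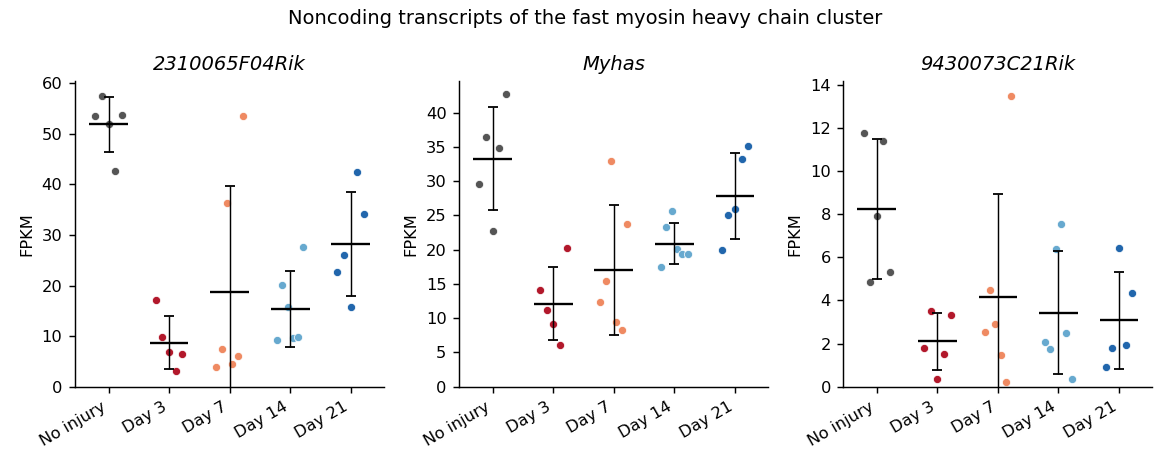
FPKM of the noncoding genes 2310065F04Rik, Myhas and 9430073C21Rik in each sample (points) by group, with mean (line) and SD (bars). For 2310065F04Rik the uninjured samples lie between 42.7 and 57.5 and the day 3 samples between 3.18 and 17.1, and 2 of the 6 day 7 samples are high.

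The genes whose log2(FPKM + 1) followed each member most closely over the 27 samples were different for each isoform. Points share a group and a library scaling, so the coefficients are descriptions. For Myh4 they were Pvalb (Pearson r = 0.942), the calcium buffer of fast fibres, Myoz1 (0.938), a Z-disc protein of fast fibres, Ociad2 (0.938), Tmod4 (0.934), which caps thin filaments, and Lrrc38 (0.932). There were 18 genes with r above 0.9 to Myh4. The noncoding 2310065F04Rik had 0.891 and Myhas 0.861. With group means removed, Pvalb kept 0.915, 2310065F04Rik 0.860 and Myhas 0.758.

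For Myh1 the closest were Hspb6 (r = 0.885), a small heat shock protein, Actn2 (0.881), the Z-disc actinin of all fibres, Mb (0.819), myoglobin, Lmod3 (0.795) and Lmcd1 (0.746). Actn2 is also 1 of the 8 reference genes above. For Myh2 they were Myoz2 (0.841), the Z-disc protein of slow and oxidative fibres, Smtnl1 (0.798), the antisense neighbour 9430073C21Rik (0.796), Bdh1 (0.790), a ketone body enzyme, and Dbndd2 (0.786). For Myh7 they were S100b (0.855), Cmtm5 (0.826), Prss12 (0.818), Myl2 (0.814) and Gjb1 (0.805), and day 7 replicate 6 had the highest level of both Myh7 and Myl2.

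Among the members, Myh1 and Myh2 varied together (r = 0.63, and 0.75 with group means removed), while Myh4 did not vary with either (0.06 with Myh1 and 0.07 with Myh2). The fast isoforms share sequence, and stretches of 50 bases found in the transcript of another gene made up 18.9% of the Myh4 transcript, 26.7% of Myh1 and 26.9% of Myh2. At 150 bases the shares were 0.511%, 2.49% and 2.06%, so a part of the reads of these genes could be assigned to a relative or left out in counting. For Myh7 the shares were 22.2% and 5.43%, all with Myh6 at 150 bases.

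Of the fast-fibre sarcomere genes, 11 of 12 were called lower on day 3, and 3 and 1 on days 7 and 14. Over all genes tested, 19.8%, 14.4% and 11.3% were called lower on those days. The list's median log2 fold change at day 3 was -1.44, against 0.01 over all genes tested. On day 3, 9 were called lower with total reads, 6 with a common sum and 4 with quantile normalization. Pvalb went from 19260 ± 4256 to 4703 FPKM at day 3 (log2 fold change -2.31). Tnnt3, fast troponin T, had -1.57, Tnni2, fast troponin I, -1.60, Mylpf and Myl1, fast light chains, -1.07 and -1.41, and Atp2a1, the fast calcium pump, -1.46. With quantile normalization the value of Mylpf turned to 0.31, and with total reads it was -0.40 and not called. The 1 gene not called was Tnnc2, fast troponin C, listed at 0.409 FPKM without injury. At day 21 Pvalb stood at 20840 FPKM, with a value of 0.07.

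Myh7 was not called, but several genes of the slow-fibre list were. Of 10 genes, 6, 3, 3 and 1 were called higher on days 3, 7, 14 and 21, and 1 was called lower on each of days 3 and 7. Over all genes tested, 23.4%, 9.02% and 1.74% were called higher on days 3, 14 and 21, and 2189 of 14630 on day 7. Called lower were 19.8% on day 3 and 14.4% on day 7. The list's median log2 fold change at day 3 was 1.43. With total reads and with a common sum, 6 were higher and 0 lower on day 3. The members with the highest level without injury moved unequally. Mybpc1, slow myosin-binding protein C, was called lower at day 3 (-0.85, limma adjusted p = 0.0317) and Myl3, the slow essential light chain, at day 7 (-2.14, 0.0239), and both calls were lost with total reads (-0.19 and -1.61) and with a common sum, while Casq2 (1.34) and Tpm3 (1.53) rose at day 3. Myl2 and Myoz2 were not called at any day.

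Of the other class II heavy chains, 9 of 10 were tested, and 3 were called higher and 1 lower at day 3, or 4 and 0 with total reads and with a common sum. Over all genes tested, 23.4% were called higher and 19.8% lower at day 3. Myh3 went from 0.516 ± 0.176 FPKM to 55.2 ± 15.6 at day 3 (log2 fold change 5.16) and Myh8 from 0.355 ± 0.353 to 15.95 ± 16.6 (3.30), and both were called higher at days 7 and 14 as well. Myh9, a non-muscle chain, rose at days 3 and 7 (1.23 and 0.76), and Myh11, the smooth muscle chain, was lower at day 3 (-0.81), a call that was lost with total reads (-0.25) and a common sum (-0.12). Myh10, Myh13, Myh14 and Myh7b were not called at any day. The summed FPKM of these 10 genes was 87.4 to 108 at day 3 and 17.6 to 127 at day 7. Both were well under that of the 4 adult chains, at least 1310 at day 3 and 2048 at day 7.

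Of the genes that fold myosin or build the thick filament, 6, 6 and 3 of 10 were called lower on days 3, 7 and 14, and 2 were higher on each of them. On day 3 this was 3 lower and 3 higher with total reads, and 2 lower and 3 higher with a common sum. Over all genes tested, 23.4% were called higher on day 3, 2189 of 14630 on day 7 and 9.02% on day 14. Called lower on days 3, 7 and 14 were 19.8%, 14.4% and 11.3%. Smyd1, a muscle methyltransferase needed for thick filament assembly, had -0.89, -0.88 and -0.69 at those days, all called, but none was called with total reads (-0.23, -0.34 and -0.29). Myom1 and Myom2, which cross-link thick filaments at the M band, were called lower at day 3 (-1.39 and -0.94), as was Trim54 (-1.16), the call of Myom2 being lost with total reads and those of Myom2 and Trim54 with a common sum, whereas Trim63, a ubiquitin ligase for myosin, was not called at any day.

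Of the regulators of fibre type, 19 of 20 were tested, and 13, 8 and 7 were called lower on days 3, 7 and 14, while 1 was higher on each of days 3, 14 and 21. On day 3 this was 4 lower and 2 higher with total reads, and 2 lower and 2 higher with a common sum. Over all genes tested, 19.8%, 14.4% and 11.3% were called lower on days 3, 7 and 14. On days 3, 14 and 21, 23.4%, 9.02% and 1.74% were called higher. Tbx15, a factor of glycolytic fibres, went from 68.0 ± 7.02 to 27.8 FPKM at day 3 (log2 fold change -1.29, limma adjusted p = 0.00181). Vgll2, a TEAD cofactor, fell at days 3, 7 and 14 (-1.28, -1.30 and -0.78). Mafa, of the large Maf factors that bind fast myosin promoters, fell at days 3 and 14 (-0.82 and -0.95). Mef2c and Mef2d were called lower at day 3 (-0.69 and -0.39), but with a common sum they turned to 0.09 and 0.40, and with total reads Mef2d turned to 0.24. With total reads Tbx15 at day 3 and Vgll2 at day 7 were still called, while Mafa at days 3 and 14 and Vgll2 at days 3 and 14 were not, and with a common sum none of these was.

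Lists of markers of other cells also held genes called on these days. Over all genes tested, 23.4%, 9.02% and 1.74% were called higher on days 3, 14 and 21, and 2189 of 14630 on day 7. Called lower on days 3, 7, 14 and 21 were 19.8%, 14.4%, 11.3% and 1.69%. Of 8 macrophage markers, 8, 7 and 3 were called higher on days 3, 7 and 14. Their summed FPKM lay between 23.3 and 35.6 in the uninjured samples and between 447 and 2510 on day 3. Of 7 fibroblast markers, 6 were higher on each of days 3, 7 and 14 and 4 on day 21 (0 with total reads or a common sum), and their sum lay between 59.2 and 145 in the uninjured samples and between 508 and 993 on day 3. Of 4 satellite cell and myoblast markers, 3 were higher on day 3 and 2 on each later day. Of 4 neutrophil markers, 3 were tested, and 3 and 2 were higher on days 3 and 7. Of 4 endothelial markers, 2 were lower on day 3 and 1 on each later day. On day 3 with a common sum, 1 endothelial marker was higher and 1 lower, while 8 macrophage and 7 fibroblast markers were higher. Of 4 cardiac markers, 2 were tested, and both were higher on days 3, 7 and 14. The others, Myl7 and Nppa, did not pass the filter on low values, and Myl7 had no read in any sample. Which cells the cardiac marker reads came from was not tested. Within day 3, replicate 4 had the lowest Myh4 (535 FPKM) and the highest macrophage sum (2510), and replicate 5 the highest Myh4 (2416) and the lowest sum (447). Their part in the myosin values was not tested.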

How the data were processed

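RNA of 27 samples was sequenced as non-directional poly(A) libraries. Per the labels, the authors aligned reads with HISAT2 2.0.5 and counted them per gene with featureCounts 1.5.0-p3. The deposited values are FPKM per gene, and the authors gave no genome build in the sources used here, but 98.3% of the table's matched genes had the coordinates of GENCODE M21 (GRCm38). Multiplied by gene length and a denominator fitted for each sample, all FPKM values were whole reads within 0.01, which gave 14376395 to 24436763 reads per sample, and the denominator was 0.747 to 1.48 times these totals. Only genes reaching 0.5 FPKM in 5 or more samples were tested. limma 3.58.1 (R 4.3.3) was fitted to log2(FPKM + 1) by group with an intensity trend, tested on simulated data before use. The pseudocount understates changes of low genes. Shares and ratios were compared by exact two-sided permutation tests (scipy 1.17.1). Counting error only is covered by the limits on 0 counts. No 2 samples held identical values. With group means removed, same-numbered samples of different groups had a mean correlation of 0.0217, against -0.00334 for other pairs. Of 51 same-numbered pairs, 15 correlated above 0.1. These values cannot exclude a pairing, and the main fit treated samples as unpaired. The members, gene lists and tests were chosen with earlier results of these data known. All members were named, with the 5 closest correlates of each, up to 6 genes a list by level without injury, and genes by position; Tnnc2 was singled out after its values were seen. A gene that this rule names is not reported here. Alternatives were other pseudocounts, filters, scalings, voom weights, blocks and left-out samples, and scaling to total reads was added after seeing the data. Promoter sequences are from RefSeq (GRCm38.p6).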

Additional observations from a re-analysis of the deposited data

Results flagged for a closer look

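Of 40 groups of values checked, 10 had a sample far from the others by Dixon's test, where chance gives about 1 in 20. For FPKM these were Myh1 in day 7 replicate 2 (1616), Myh2 in no injury replicate 1 (421) and day 21 replicate 3 (234), and Myh7 in day 7 replicate 6 (16.3) and day 21 replicate 4 (3.16). For the share of the summed FPKM they were Myh2 in no injury replicate 1 (6.59%) and day 21 replicate 3 (5.05%), and Myh7 in day 3 replicate 4 (0.0191%), day 7 replicate 6 (0.221%) and day 21 replicate 4 (0.0494%). The difference of Myh4 from uninjured muscle changed between days 3 and 21, with a log2 fold change of 1.61 between these days (limma adjusted p = 0.00796).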

How the results depend on the processing

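Depth limits Myh7, which had at most 1747 reads, and the direction of some weak changes depended on the scaling between libraries. Myh4 at day 3 against no injury kept its direction and call in all alternatives run. Myh4 between days 3 and 21 kept both in the 5 other settings compared for it and in the 10 fits that left out 1 sample. Quantile normalization and voom weights were not among those 5 settings. Quantile normalization turned Myh1 at day 3 to 0.34 and Myh7 at day 3 to -0.038, and a common sum turned Myh1 at day 3 to 0.44 and scaling to total reads to 0.28. Myh1 at day 7 lost its call without a filter on low values or with only the 2 groups fitted (both -0.82), with a common sum (-0.10), with quantile normalization (-0.17), with total reads (-0.27) and without day 7 replicates 3 and 6 (-0.75), the last 2 being choices made after seeing the data. Leaving out those 2 also gave calls for Myh4 at day 7 (-1.59), at day 14 against no injury (-0.88, as with only the 2 groups fitted) and against day 3 (1.07) and at day 21 against day 7 (1.25), and Myh7 at day 7 became -0.13, and -0.28 with voom weights. Ttn and Neb alone as reference gave 0.72 and 0.49 for Myh1 at days 3 and 14, no longer past 0.05. The causes were not tested.

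The replicate number was used only as a label, and whether it pairs samples is not settled. A replicate block by number gave -1.15 for Myh4 at day 7 and -1.11 at day 14, both called, -0.80 for Myh1 at day 7, not called, and 795 genes at day 21. A block by the letter in the labels gave -1.12, -1.07, -0.77 and 1233 genes, and -0.065 for Myh7 at day 21.

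Genes called at day 7 were 6513 with a common sum against 4296, at day 14 they were 1785 against 2969, and at day 21, against 502, they were 49 with a common sum, 133 with total reads, 247 without a filter, 302 with quantile normalization, 282 with voom weights, 1477 with only the 2 groups fitted and 924 without the 2 day 7 samples.

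Leaving out 1 sample at a time gave these ranges for log2 fold changes against no injury: -1.58 to -0.80 for Myh2 on day 3, -1.20 to -0.76 for Myh4 on day 7, -1.03 to -0.68 for Myh1 on day 7, -1.44 to -0.84 for Myh2 on day 7, -0.012 to 0.81 for Myh7 on day 7, -2.07 to -1.23 for Myh2 on day 21 and -0.081 to 0.43 for Myh7 on day 21. Between days they were 0.74 to 1.28 for Myh4, day 14 against day 3 and 0.89 to 1.24 for Myh1, day 14 against day 7. The share differences in percentage points were 12.4 to 18.3 for Myh1 on day 14, -2.19 to -0.402 for Myh2 on day 21 and -17.8 to -11.3 for Myh4 on day 14, and the log2 ratios to shared genes 0.45 to 0.65 for Myh1 on day 3, 0.49 to 0.69 for Myh1 on day 14, -1.83 to -1.09 for Myh2 on day 21 and -0.64 to -0.40 for Myh4 on day 14. Genes called were 1895 (without day 14 replicate 5) to 3203 on day 14 and 190 (without day 21 replicate 2) to 568 on day 21. Between days, leaving out day 7 replicate 5 gave 1792 genes for day 7 against day 3, against 7, and leaving out day 7 replicate 6 gave 1261 for day 21 against day 7, against 329, and 151 for day 14 against day 7, against 49. Leaving out day 3 replicate 4 gave 1668 for day 14 against day 3, against 2738, and 2316 for day 21 against day 3, against 3728. The Myh1 share on day 14 and both Myh1 ratios lost p below 0.05 (exact permutation test) on leaving out most single samples, with p up to 0.0857, 0.0714 and 0.0905. Over all 44 results and their alternatives, 699 of 836 values stayed the same. For effects this means the same direction and side of the threshold. For the numbers of genes called, which are among the 44 results, it means a number close to the main one.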
